A study of Mus musculus with 6 samples.

Results

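Lipases and lipid droplet proteins decide where a macrophage takes its fatty acids from and how it stores and releases them. The set described here holds 10 genes chosen by name, out of 54532 in the count table: the secreted lipases Lpl and Lipg, the lysosomal lipase Lipa, the cytosolic hydrolases Pnpla2, Lipe and Mgll, the regulators Abhd5 and G0s2, and the droplet coat genes Plin2 and Plin3. All 10 were found as 1 row each, and 9 passed the filter on low counts. They were measured by RNA sequencing in mouse bone-marrow-derived macrophages, phagocytes grown from marrow, treated with monosodium urate (MSU), the crystal of gout. There were 2 groups of 3 libraries, labelled Tet2 knockout with MSU and wild-type with MSU. Every library came from treated cells, so the comparison is one of genotype labels within the treated state. The labels give no age, strain or allele, and whether each library had its own mouse or culture is not said. P-values therefore reflect how far these libraries scatter, a scatter that may be technical.

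Triglyceride carried by lipoproteins is cut outside the cell by lipoprotein lipase, the product of Lpl, while endothelial lipase, the product of Lipg, acts mainly on phospholipids of high-density lipoprotein. Lipids taken up by endocytosis are hydrolysed in the lysosome by acid lipase, the product of Lipa. Lipid stored in droplets is broken down in the cytosol in sequence by adipose triglyceride lipase (Pnpla2), hormone-sensitive lipase (Lipe) and monoglyceride lipase (Mgll). Abhd5 activates the first of these enzymes, G0s2 inhibits it, and perilipins such as Plin2 and Plin3 coat the droplet. In macrophages these routes are best known from foam cells, which fill with lipid droplets in atherosclerotic plaques.

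Total counts per library ran from 11997104 to 14481843, and wild-type replicate 2 had the lowest. It also stood apart on the second principal component (18.8, against -10.4 and -9.21 for the other wild-type libraries), so results are also given without it. Mitochondrial transcripts took 0.349 to 0.366% of counts in knockout-labelled libraries and 0.240 to 0.275% in wild-type-labelled libraries, and 19287 to 19595 genes were detected under the first label and 18649 to 19171 under the second. Neither overlapped between labels, and their part in the results was not tested. Tet2, the gene named by the genotype label, was not lower in the libraries labelled knockout: 33.7 ± 0.80 CPM there and 29.3 ± 1.41 CPM in wild-type-labelled libraries (SD, n = 3 each; log2 change 0.20, SE 0.07; edgeR adjusted p = 0.0159). CPM are counts scaled to library sizes that edgeR's TMM factors adjust. That call was lost with an assumed coefficient of variation of 0.1 between libraries (edgeR adjusted p = 0.35), with DESeq2 (adjusted p = 0.0691), and in edgeR on leaving out knockout replicate 2 (adjusted p = 0.0553) or wild-type replicate 2 (0.0799). A count over all exons cannot show a partial deletion, so directions are those of the libraries as labelled. None of the 10 genes lies on chromosome 3, where Tet2 lies.

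The cells carried macrophage transcripts. The 9 macrophage markers summed to 6865 to 7135 CPM in knockout-labelled libraries and 6709 to 7118 CPM in wild-type-labelled libraries, ranges that overlapped. Of these, 4 were called higher and 4 lower, and Itgam did not pass (median log2 change -0.018). That was 88.9% called, beside 40.9% of all tested genes. Adgre1, which encodes F4/80, stood at 1303 ± 13.5 CPM in knockout-labelled libraries and 760 ± 15.3 CPM in wild-type-labelled libraries (SD, n = 3 each). Adipocytes, which use the same lipolysis genes, left almost no trace. The 9 adipocyte markers summed to 0 to 0.151 CPM in knockout-labelled libraries and 0.142 to 0.330 CPM in wild-type-labelled libraries, and Adipoq, Lep, Plin4, Cidec and Cidea were at 0 counts in all 6. Stromal transcripts were abundant under both labels, and the 10 markers summed to 7085 to 7265 CPM in knockout-labelled libraries and 7587 to 8100 CPM in wild-type-labelled libraries. Of these, 1 (Col3a1) was called higher and 6 lower, or 70.0% called, while Pdgfra, Pdgfrb and Thy1 did not pass. The 9 endothelial markers summed to 131 to 138 CPM in knockout-labelled libraries and 91.8 to 96.7 CPM in wild-type-labelled libraries. Vwf, Kdr and Esam were called higher, none lower, while Pecam1 (1.06 ± 0.26 CPM in knockout-labelled libraries and 0.627 ± 0.41 CPM in wild-type-labelled libraries; SD, n = 3 each) and Cdh5 did not pass. Calls made up 60.0% of the 5 endothelial markers tested. Macrophage and stromal markers were called in both directions and endothelial markers only higher, and their part in the results below was not tested. In bulk RNA, fewer cells of a type and less RNA per cell cannot be told apart.

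The sequences upstream of 4 genes, chosen by direction, are shown because Lipa moved one way and the droplet genes Plin2, Pnpla2 and Mgll the other. Those of Lipe, which moved as Lipa did, and of Abhd5, which fell, are not printed. They are the 250 bases before the RefSeq gene start (GRCm38.p6), read 5′ to 3′ on the gene's strand, and capitals mark every match to a motif searched.
Lipa, chr19:34527475-34527724, minus strand: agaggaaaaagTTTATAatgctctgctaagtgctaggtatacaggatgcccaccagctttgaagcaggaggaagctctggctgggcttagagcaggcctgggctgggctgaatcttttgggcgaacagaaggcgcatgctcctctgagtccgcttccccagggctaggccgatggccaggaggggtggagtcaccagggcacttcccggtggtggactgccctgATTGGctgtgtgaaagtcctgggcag
Plin2, chr4:86670060-86670309, minus strand: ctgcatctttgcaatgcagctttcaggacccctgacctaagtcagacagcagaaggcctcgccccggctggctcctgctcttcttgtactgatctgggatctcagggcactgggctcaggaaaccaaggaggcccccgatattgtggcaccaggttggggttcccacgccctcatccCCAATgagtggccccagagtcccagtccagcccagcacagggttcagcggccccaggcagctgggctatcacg
Pnpla2, chr7:141454938-141455187, plus strand: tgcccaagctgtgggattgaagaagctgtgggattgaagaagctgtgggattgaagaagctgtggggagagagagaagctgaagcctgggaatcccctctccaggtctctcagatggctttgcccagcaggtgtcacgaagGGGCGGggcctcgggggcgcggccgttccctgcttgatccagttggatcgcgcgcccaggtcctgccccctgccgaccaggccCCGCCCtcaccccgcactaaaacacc
Mgll, chr6:88724162-88724411, plus strand: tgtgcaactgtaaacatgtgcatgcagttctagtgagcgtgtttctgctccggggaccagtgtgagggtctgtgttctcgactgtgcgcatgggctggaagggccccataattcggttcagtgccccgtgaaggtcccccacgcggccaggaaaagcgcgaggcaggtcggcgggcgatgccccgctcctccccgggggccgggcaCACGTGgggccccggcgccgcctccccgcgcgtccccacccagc

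RefSeq promoters were used for 8 of the 10 genes, all but Lpl and Lipg. Any entry on chromosome 18, where Lipg lies, was left out beforehand, so Lipg could not be searched. On both strands 9 motifs were searched, none of which contains another. The E-box CACGTG, the core read by TFEB and related factors of lysosome and lipid genes, occurred in the Mgll sequence 44 to 39 bases before the start and in 6.02% of 32851 promoter windows of the same length. It also occurred 155 to 150 bases before the second RefSeq start of Lipe, a gene that moved the other way, and not before the second start of Mgll. The Lipa sequence held CCAAT at 26 to 22 bases and TATAAA at 239 to 234 bases, each on the opposite strand, and the Plin2 sequence held CCAAT at 73 to 69 bases. CCAAT occurred in 33.8% and TATAAA in 12.4% of all windows. The GC box GGGCGG occurred in the Pnpla2 sequence on one strand at 109 to 104 and on the other at 26 to 21 bases, and in 32.7% of all windows. The AP-1 motif TGANTCA (6.75% of all windows), the interferon-stimulated response element core (2.98%), the PU.1 motif GAGGAAGT (2.44%) and the nuclear receptor direct repeats DR1 (0.0335%) and DR4 (0.0152%) matched none of these 4 sequences. A match is a description of letters, not of binding.

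The secreted lipases and the lysosomal lipase stood higher under the Tet2 knockout label, and most genes of droplet storage and cytosolic lipolysis stood lower. Of the 9 tested genes, Lpl, Lipg, Lipa and Lipe were called higher, Pnpla2, Mgll, Abhd5 and Plin2 lower, and Plin3 did not pass. Across all 13175 tested genes the same edgeR quasi-likelihood test, at a Benjamini-Hochberg adjusted p of 0.05, called 21.6% higher and 19.2% lower. In each of the 8 called genes the libraries of one label lay wholly above or below the other 3. Across all tested genes 47.8% were separated in this way, 24.8% upward and 23.0% downward. Without wild-type replicate 2 the counts were again 4 higher and 4 lower. With an assumed coefficient of variation of 0.1 between libraries in place of the 2.63% that was estimated, Pnpla2 (edgeR adjusted p = 0.0778) and Abhd5 (0.405) lost their calls, which left 4 higher and 2 lower against 9.28% and 5.03% of all tested genes.

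**Figure D1:**
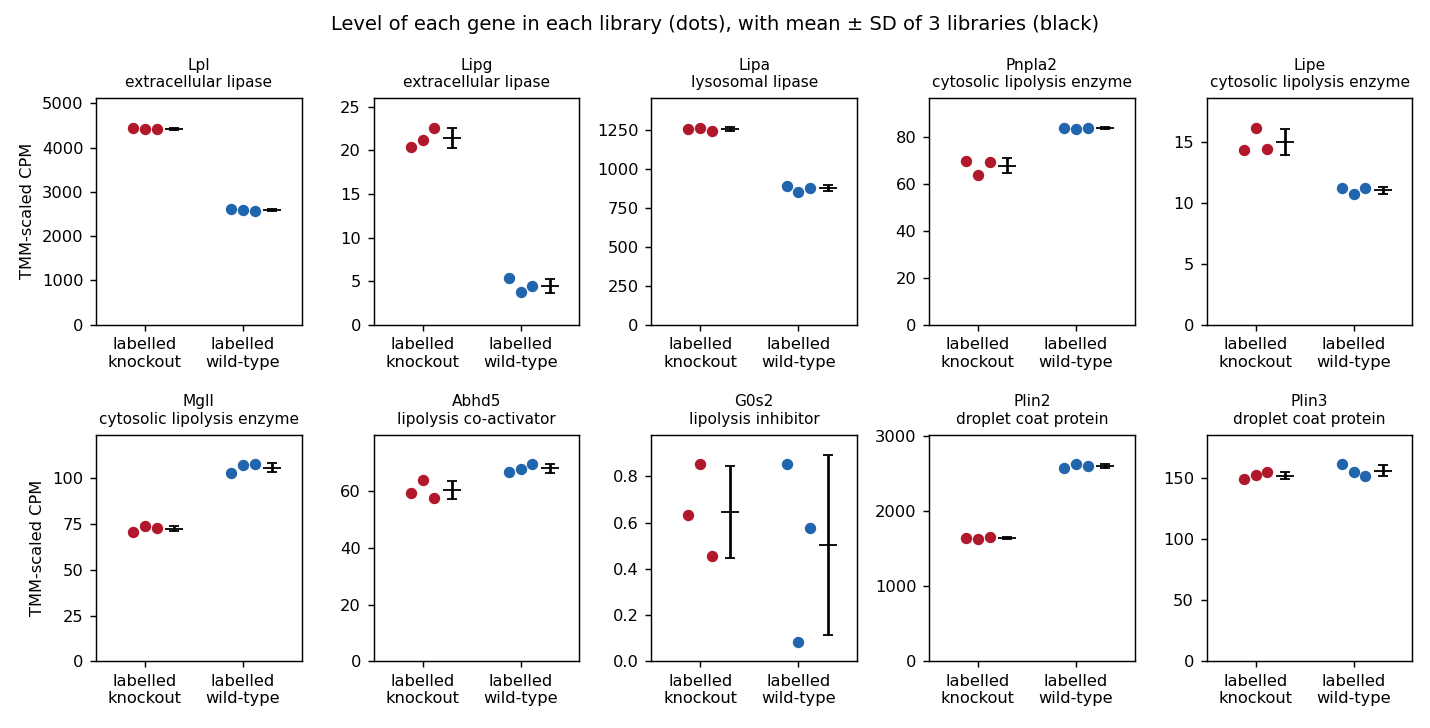
TMM-scaled CPM (vertical axes, each starting at 0) of the 10 genes in the 3 libraries labelled knockout (red) and the 3 labelled wild-type (blue), with the mean and SD of each group in black. The groups do not overlap in 8 panels, and they overlap in Plin3 and in G0s2, which stayed under 1 CPM.

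Lpl (ENSMUSG00000015568, mm10 chr8:68880491-68907448, plus strand) was read at 4456, 4413 and 4416 CPM in knockout-labelled libraries, against 2605, 2597 and 2576 CPM in wild-type-labelled libraries. Libraries of one label differed little, and the groups stood far apart. The change was 1.71-fold (95% interval 1.66 to 1.76; log2 change 0.77, SE 0.02; edgeR adjusted p = 3.83e-59). Lpl alone took 0.436 ± 0.0022% of all counts in knockout-labelled libraries and 0.263 ± 0.0014% in wild-type-labelled libraries (SD, n = 3 each). The log2 change ran from 0.75 to 0.78 over all alternatives.

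Lipg (ENSMUSG00000053846, mm10 chr18:74939322-74961263, minus strand) had the largest change of the set from a far lower level. It stood at 20.4, 21.2 and 22.6 CPM in knockout-labelled libraries, against 5.33, 3.71 and 4.39 CPM in wild-type-labelled libraries. Behind these lie 290, 298 and 299 reads in knockout-labelled libraries and 75, 45 and 61 reads in wild-type-labelled libraries, the lowest in wild-type replicate 2. The change was 4.73-fold (95% interval 4.01 to 5.59; log2 change 2.24, SE 0.12; edgeR adjusted p = 1.26e-32), which placed Lipg at rank 20 of all tested genes by log2 rise. Without wild-type replicate 2 the log2 change was 2.13. Lipg is named for endothelium, and the endothelial markers Vwf (90.2 ± 2.91 CPM in knockout-labelled libraries and 57.3 ± 0.39 CPM in wild-type-labelled libraries; SD, n = 3 each) and Kdr (log2 change 0.47, SE 0.09) were higher in the same libraries, whereas Cdh5 stood at 18.2 ± 1.69 and 20.1 ± 1.04 CPM under the same labels and did not pass. The part of endothelial cells in the Lipg result was not tested.

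Lipa (ENSMUSG00000024781, mm10 chr19:34492318-34527474, minus strand), the only acid lipase of the lysosome in this set, was read at 1256, 1264 and 1241 CPM in knockout-labelled libraries, against 890, 852 and 879 CPM in wild-type-labelled libraries. The groups did not overlap, and the change was 1.43-fold (95% interval 1.39 to 1.48; log2 change 0.52, SE 0.02; edgeR adjusted p = 4.19e-39). Its upstream sequence is the first of the 4 printed above.

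Pnpla2 (ENSMUSG00000025509, mm10 chr7:141455198-141460743, plus strand), which starts the breakdown of droplet triglyceride, was lower. It stood at 69.8, 64.1 and 69.3 CPM in knockout-labelled libraries, against 84.1, 83.3 and 83.9 CPM in wild-type-labelled libraries. The libraries labelled wild-type lay close together, and knockout replicate 2 was the lowest of all. The change was 0.808-fold (95% interval 0.758 to 0.862; log2 change -0.31, SE 0.05; edgeR adjusted p = 2.36e-08).

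Mgll (ENSMUSG00000033174, mm10 chr6:88724412-88828360, plus strand), which splits monoglycerides, among them the endocannabinoid 2-arachidonoylglycerol, fell further. Its levels were 70.8, 73.8 and 72.7 CPM in knockout-labelled libraries, against 103, 107 and 108 CPM in wild-type-labelled libraries. The groups were well apart, with a 0.686-fold change (95% interval 0.646 to 0.728; log2 change -0.54, SE 0.04; edgeR adjusted p = 1.22e-20).

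Lipe (ENSMUSG00000003123, mm10 chr7:25379527-25398710, minus strand), the hydrolase between these enzymes, moved the other way. It was read at 14.3, 16.2 and 14.45 CPM in knockout-labelled libraries, against 11.2, 10.7 and 11.2 CPM in wild-type-labelled libraries. Behind these lie 191 to 228 reads in knockout-labelled libraries and 130 to 158 reads in wild-type-labelled libraries, and the groups did not overlap. The change was 1.35-fold (95% interval 1.17 to 1.57; log2 change 0.44, SE 0.11; edgeR adjusted p = 0.000349). Lipe also acts on cholesteryl esters. An antisense gene that overlaps it, 4732471J01Rik, held 12 reads in knockout-labelled libraries and 10 in wild-type-labelled libraries, 2.06% of the Lipe count in all, and whether counting used strand is not stated.

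Abhd5 (ENSMUSG00000032540, mm10 chr9:122351608-122381524, plus strand), the co-activator of Pnpla2, showed the smallest called change. Its levels were 59.2, 63.7 and 57.6 CPM in knockout-labelled libraries, against 66.5, 67.7 and 69.3 CPM in wild-type-labelled libraries. The gap between the nearest libraries was narrower than the spread among those labelled knockout, and the change was 0.887-fold (95% interval 0.828 to 0.951; log2 change -0.17, SE 0.05; edgeR adjusted p = 0.00342). G0s2 (ENSMUSG00000009633, mm10 chr1:193272161-193273217, minus strand), the inhibitor of Pnpla2, was too scarce to test. It had 9, 12 and 6 reads in knockout-labelled libraries, against 12, 1 and 8 reads in wild-type-labelled libraries, and the groups overlapped. A fit without the filter gave a log2 change of 0.31 (SE 0.51; edgeR adjusted p = 0.729), and leaving out wild-type replicate 2 gave -0.14 (edgeR adjusted p = 0.861). G0s2 lies inside the span of Lamb3 on the opposite strand, which had 16 reads in knockout-labelled libraries and 5 in wild-type-labelled libraries, and without strand, reads of the pair could not be told apart.

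Plin2 (ENSMUSG00000028494, mm10 chr4:86648386-86670060, minus strand), the main droplet coat protein of macrophages, was lower by more than any other gene of the set. It was read at 1637, 1632 and 1662 CPM in knockout-labelled libraries, against 2577, 2626 and 2606 CPM in wild-type-labelled libraries. The change was 0.631-fold (95% interval 0.613 to 0.650; log2 change -0.66, SE 0.02; edgeR adjusted p = 2.26e-51). Plin3 (ENSMUSG00000024197, mm10 chr17:56277476-56292873, minus strand), the coat protein that also resides free in the cytosol, stood at 149, 152 and 154 CPM in knockout-labelled libraries, against 161, 155 and 152 CPM in wild-type-labelled libraries. These overlapped, and the test was not passed (log2 change -0.04, 95% interval -0.11 to 0.03; edgeR adjusted p = 0.410). The interval covers changes of between 0.927-fold and 1.02-fold. Per kilobase, Plin2 stood at 11.7 ± 0.14 times the level of Plin3 in knockout-labelled libraries and at 18.0 ± 0.67 times in wild-type-labelled libraries (SD, n = 3 each). With principal transcript lengths the ratios were 20.9 ± 0.25 and 32.2 ± 1.20 under the same labels.

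**Figure D2:**
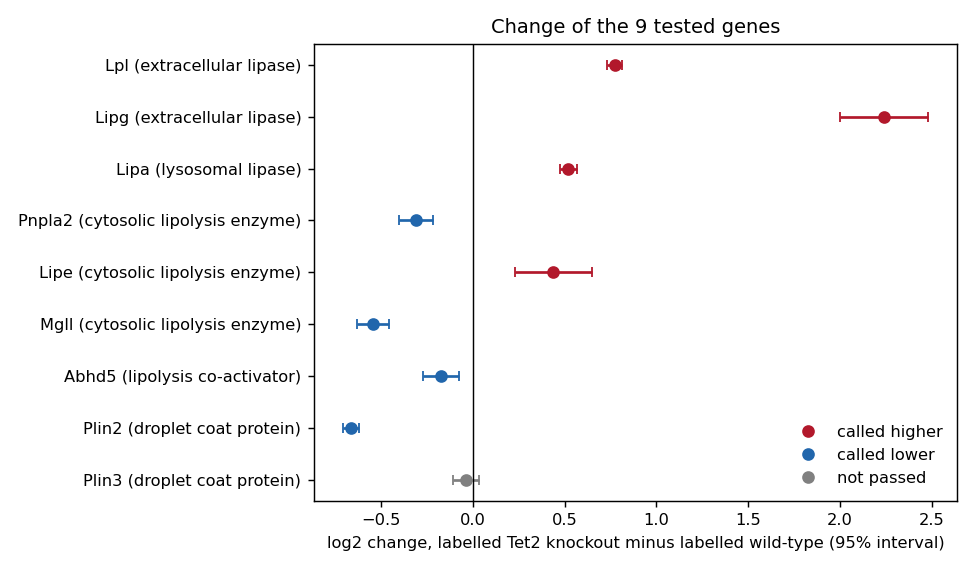
Log2 change of the 9 tested genes (horizontal axis; libraries labelled Tet2 knockout minus those labelled wild-type) with 95% intervals, ordered by role. Lpl, Lipg, Lipa and Lipe lie right of 0, Pnpla2, Mgll, Abhd5 and Plin2 left of it, and the interval of Plin3 spans 0.

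Levels of different genes were compared per kilobase of the gene length that the deposited table gives. In the libraries labelled knockout, Plin2 led with 468 ± 4.57 CPM per kilobase, followed by Lpl (422.6 ± 2.29) and Lipa (422.2 ± 3.90), which did not differ beyond their spread (SD, n = 3 throughout). In those labelled wild-type, Plin2 stood at 741 ± 7.05, Lipa at 294 ± 6.56 and Lpl at 247 ± 1.40 CPM per kilobase. By these lengths the middle of the order was the same under both labels: Plin3 (40.1 ± 0.70 in knockout-labelled libraries and 41.2 ± 1.24 in wild-type-labelled libraries), Pnpla2 (22.4 ± 1.06 and 27.8 ± 0.13), Mgll (14.3 ± 0.30 and 20.8 ± 0.52) and Abhd5 (10.1 ± 0.53 and 11.4 ± 0.24 CPM per kilobase). Lipg and Lipe traded places at the low end. Lipg was at 5.65 ± 0.30 and Lipe at 2.55 ± 0.18 CPM per kilobase in knockout-labelled libraries, against 1.18 ± 0.21 and 1.88 ± 0.05 in wild-type-labelled libraries. G0s2 was last, at 0.742 ± 0.23 CPM per kilobase in knockout-labelled libraries and 0.578 ± 0.45 in wild-type-labelled libraries.

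The order depended on the length used. The table gives Lpl a length of 10478 bases, whereas its principal transcript in GENCODE M21 has 4115. With principal transcript lengths, a choice made once the values were known, Lpl stood at 1076 ± 5.83, Plin2 at 870 ± 8.49 and Lipa at 422 ± 3.90 CPM per kilobase in knockout-labelled libraries. In those labelled wild-type, Plin2 led with 1379 ± 13.1, ahead of Lpl (630.0 ± 3.57) and Lipa (294 ± 6.56). Abhd5 (19.1 ± 1.01) and Mgll (18.7 ± 0.39) did not differ beyond their spread in knockout-labelled libraries, and Abhd5 (21.5 ± 0.45) lay below Mgll (27.3 ± 0.69) in wild-type-labelled libraries. Lpl was 1.24 ± 0.016 times Plin2 in knockout-labelled libraries and 0.457 ± 0.0059 times in wild-type-labelled libraries. With the lengths of the table the same ratio was 0.903 ± 0.011 and 0.334 ± 0.0043 under the same labels. The ratio between labels is the same with either length, since a gene's length cancels.

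**Figure D3:**
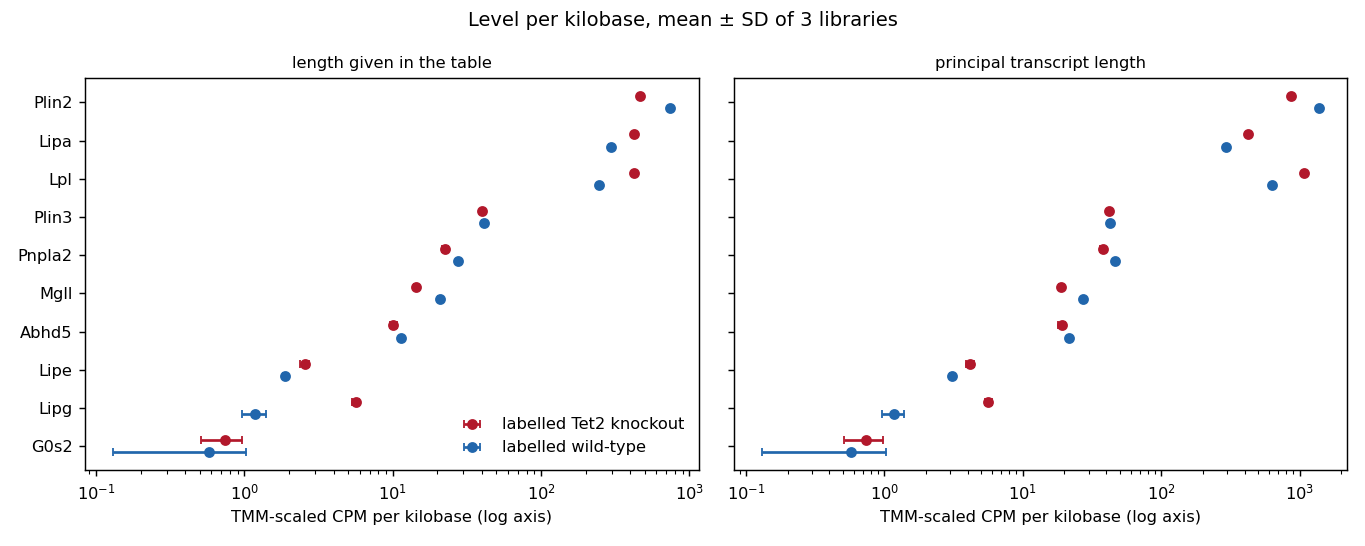
Mean TMM-scaled CPM per kilobase (log axis) of each gene with SD over 3 libraries, in libraries labelled Tet2 knockout (red, upper) and wild-type (blue, lower), by the length the table gives (left) and by principal transcript length (right). By the table's length Lpl lies level with Lipa under the knockout label and below it under the wild-type label, and by principal length it lies above Lipa under both. Lipg lies above Lipe under the knockout label.

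Set against each other by compartment, the extracellular lipases took a larger part and the cytosolic enzymes a smaller part of the hydrolase transcripts in the libraries labelled knockout. Lpl and Lipg together made up 48.2, 47.9 and 48.3% of the summed CPM per kilobase of the 6 hydrolase genes there, against 41.7, 42.4 and 41.6% in wild-type-labelled libraries. Nearly all of that was Lpl, which stood at 79.1, 75.3 and 70.5 times Lipg in knockout-labelled libraries, against 177, 253 and 212 times in wild-type-labelled libraries. With principal transcript lengths it stood at 191 ± 10.98 and 545 ± 96.9 times under the same labels (SD, n = 3 each). The cytosolic genes Pnpla2, Lipe and Mgll made up 4.42, 4.32 and 4.49% in knockout-labelled libraries, against 8.33, 8.61 and 8.57% in wild-type-labelled libraries. Neither share overlapped between labels. Lipa took 47.5 ± 0.29% in knockout-labelled libraries and 49.6 ± 0.56% in wild-type-labelled libraries. With principal transcript lengths the extracellular share was 69.1 ± 0.14% and 63.0 ± 0.42%, and the cytosolic share 3.87 ± 0.075% and 7.68 ± 0.10%, under the same labels. Shares are parts of a sum made up mostly of Lpl and Lipa, so they also move when those genes move. The cytosolic share fell by more than Pnpla2 (0.808-fold) or Mgll (0.686-fold) did, and Lipe rose (1.35-fold). The Lipa share was lower although Lipa itself rose 1.43-fold. These shares rest on the genes tested above and are a description without a test.

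**Figure D4:**
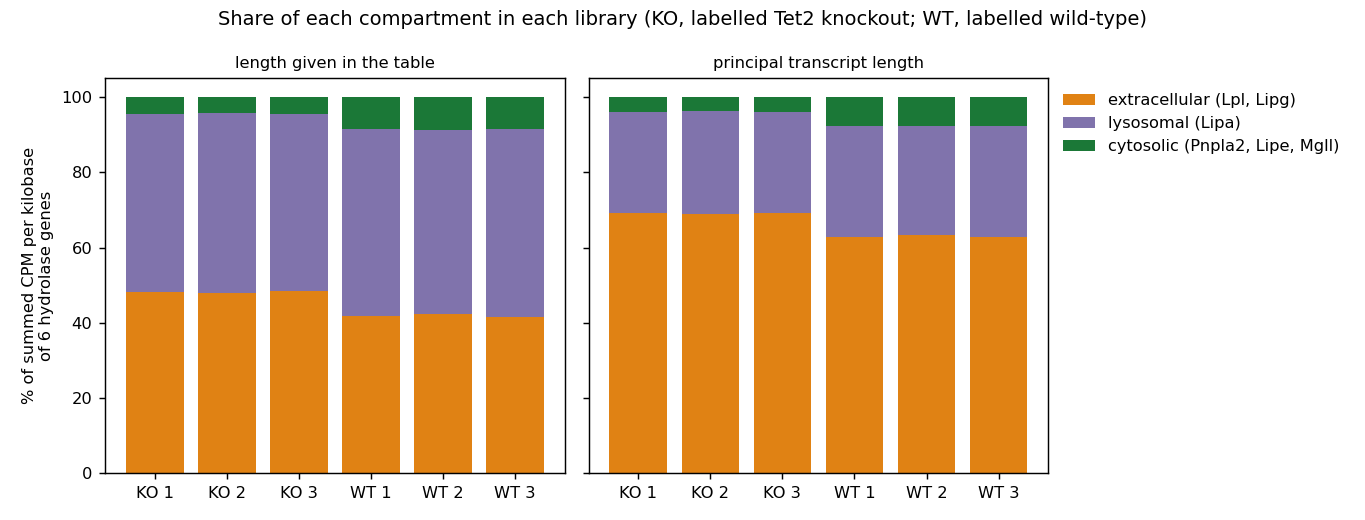
Share (%) of the summed CPM per kilobase of 6 hydrolase genes held by extracellular, lysosomal and cytosolic enzymes in each of the 6 libraries, by the length the table gives (left) and by principal transcript length (right). The cytosolic share is 4.32 to 4.49% in the libraries labelled knockout and 8.33 to 8.61% in wild-type-labelled libraries at left.

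Within the cytosolic chain the balance of the enzymes also differed. Per kilobase, Lipe stood at 0.105, 0.130 and 0.107 times Pnpla2 in knockout-labelled libraries, against 0.0685, 0.0660 and 0.0686 times in wild-type-labelled libraries. Abhd5 stood at 0.430, 0.504 and 0.421 times Pnpla2 in knockout-labelled libraries, against 0.401, 0.412 and 0.419 times in wild-type-labelled libraries. The first ratio was higher in all 3 libraries labelled knockout, and the second was too, though by little outside knockout replicate 2.

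Among 18 listed partners of the secreted lipases 11 were tested, of which 6 were called higher and 1 lower, with a median log2 change of 0.16 against -0.0031 over all tested genes, of which 40.9% were called. Angptl4, which inactivates lipoprotein lipase, was the 1 that fell: 53.1 ± 2.70 CPM in knockout-labelled libraries and 72.2 ± 2.56 CPM in wild-type-labelled libraries (SD, n = 3 each; log2 change -0.44, SE 0.05; edgeR adjusted p = 1.6e-12). Sel1l, needed for the lipase to leave the endoplasmic reticulum, rose by 0.23 on the log2 scale, and the lipoprotein receptor gene Lrp1 by 0.64. Apoe, a ligand of that receptor, rose by 0.16. Vldlr, a lipoprotein receptor gene named after its value was seen, was called higher by 0.19 but lost the call in 8 alternatives, among them DESeq2 and upper-quartile scaling, which each left 5 higher. RLE and upper-quartile scaling gave 2 lower. The lipase maturation factor Lmf1 stood at 20.3 ± 1.19 and 19.3 ± 1.42 CPM under the same labels and did not pass. Gpihbp1, the endothelial anchor of lipoprotein lipase, had 0 reads in all 6 libraries, and its activator Apoc2, which lies inside another annotated gene and can lose reads to it, averaged 0.0252 CPM in knockout-labelled libraries and 0 in wild-type-labelled libraries.

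Among 20 other droplet coat and lipolysis regulators, 11 were tested, with 2 called higher and 3 lower (median log2 change -0.065). That was 45.5% called, close to the 40.9% of all tested genes. Hilpda, a droplet protein that inhibits Pnpla2, fell to 44.0 ± 2.15 CPM in knockout-labelled libraries, against 120.1 ± 2.97 CPM in wild-type-labelled libraries (SD, n = 3 each; log2 change -1.45, SE 0.05; edgeR adjusted p = 1e-50). Fitm2, which helps droplets bud from the endoplasmic reticulum, fell by 0.37, and Rab18, a droplet GTPase named after its value was seen, by 0.09 on the log2 scale. Prkar2b, a regulatory subunit of protein kinase A, and Pnpla8, a calcium-independent phospholipase, rose by 0.38 and 0.18. The adipocyte coat genes Plin1, Plin4 and Cidec and the oxidative-tissue gene Plin5 each stayed under 0.1 CPM on average under both labels, so Plin2 and Plin3 were the perilipins measured above that level. Fitm2, Pnpla8 and Rab18 each lost their call with DESeq2 and without wild-type replicate 2. Fitm2 and Rab18 also lost it without knockout replicate 3, and Pnpla8 and Rab18 without knockout replicate 2 or wild-type replicate 1. Each of these settings left 1 called higher or 1 called lower.

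Among other neutral lipid hydrolases, 2 of 12 tested genes were called higher and 1 lower (median log2 change 0.073), beside 40.9% called of all tested genes. Abhd12, which hydrolyses lysophosphatidylserine, rose by 0.29 and the cholesteryl ester hydrolase gene Nceh1 by 0.17, while the phospholipase gene Ddhd1 fell by 0.49 on the log2 scale. Abhd6, another monoglyceride hydrolase, stood at 2.96 ± 0.87 CPM in knockout-labelled libraries and 2.74 ± 0.57 CPM in wild-type-labelled libraries (SD, n = 3 each) and did not pass. Genes of triglyceride and cholesteryl ester synthesis were called higher in 4 of 15 tested and lower in 0 (median log2 change 0.089). That was 26.7% called, again below the 40.9% of all tested genes, of which 21.6% were called higher. All 4 lost their calls with the assumed coefficient of variation of 0.1. The 4 were Lpin2, a phosphatidate phosphatase (0.26), Soat1, which esterifies cholesterol (0.09), and the acyltransferase genes Agpat5 (0.18) and Agpat3 (0.13), and both acyltransferase genes lost their calls without wild-type replicate 3, which left 2. Dgat1 and Dgat2, which make triglyceride, averaged 13.1 ± 1.49 and 3.18 ± 0.16 CPM in knockout-labelled libraries, against 14.3 ± 0.69 and 2.81 ± 0.25 CPM in wild-type-labelled libraries, and neither passed. The 0 lower became 1 (Agpat2) with RLE or upper-quartile scaling, without knockout replicate 1 and without wild-type replicate 2. At an unadjusted p of 0.05 the edgeR count of lower genes in this list was 2 (Agpat2 and Soat2, named after their values were seen), and DESeq2 called 0.

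Genes for uptake, binding and activation of fatty acids were called higher in 9 of 17 tested and lower in 2 (median log2 change 0.15). That was 64.7% called, beside 40.9% of all tested genes. Acsl1, which activates long-chain fatty acids, stood at 384 ± 2.43 CPM in knockout-labelled libraries and 202 ± 14.7 CPM in wild-type-labelled libraries (SD, n = 3 each; log2 change 0.92, SE 0.03; edgeR adjusted p = 1.17e-41). The binding protein genes Fabp4 and Fabp3 rose by 0.44 and 0.61 and the uptake receptor gene Cd36 by 0.12, while Fabp5 fell by 0.21 on the log2 scale. The other gene that fell was the thioesterase gene Acot13 (-0.27), named after its value was seen. It lost its call with DESeq2 and without knockout replicate 2, knockout replicate 3 or wild-type replicate 1, which each left 1 lower. Of 22 fatty acid oxidation genes, all tested, 8 were called higher and 4 lower (median log2 change 0.066), or 54.5% called. Hadha, of the mitochondrial trifunctional protein, rose by 0.23 and the uncoupling protein gene Ucp2 by 0.17. Pdk4, a brake on glucose oxidation, fell by 1.29 on the log2 scale, and the other 3 that fell, named after their values were seen, were Acadl, Eci1 and Etfa. Without knockout replicate 1 the count called lower was 2, as Eci1 and Etfa lost their calls.

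Nuclear receptors and other regulators of lipid genes were called higher in 6 and lower in 6 of 17 tested (median log2 change -0.093). That was 70.6% called, beside 40.9% of all tested genes. Nr1h3, the liver X receptor alpha, stood at 117 ± 5.38 CPM in knockout-labelled libraries and 80.3 ± 2.20 CPM in wild-type-labelled libraries (SD, n = 3 each; log2 change 0.54, SE 0.04; edgeR adjusted p = 3.34e-21). Lpl is a known target of this receptor, and a link between their changes was not tested. Pparg, a receptor that drives droplet and uptake genes, rose by 0.48 and Mitf by 0.30, whereas the partner receptor gene Rxra and Cebpa fell by 0.42 and 0.59 on the log2 scale. Tfeb, a regulator of lysosomal genes, stood at 34.6 ± 0.82 CPM in knockout-labelled libraries and 34.2 ± 0.83 CPM in wild-type-labelled libraries and did not pass. Around Lipa, 6 of 18 tested genes of lysosomal lipid handling were called higher and 5 lower (median log2 change 0.034), or 61.1% called. The balance turned to 3 higher and 7 lower with upper-quartile scaling, and 3 were called higher without wild-type replicate 1. The protease gene Ctsl, the saposin precursor gene Psap and the galactosidase gene Gla fell by 0.77, 0.26 and 0.30 on the log2 scale. The other 2 that fell, named after their values were seen, were Lamp1 and Mcoln1.

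**Figure D5:**
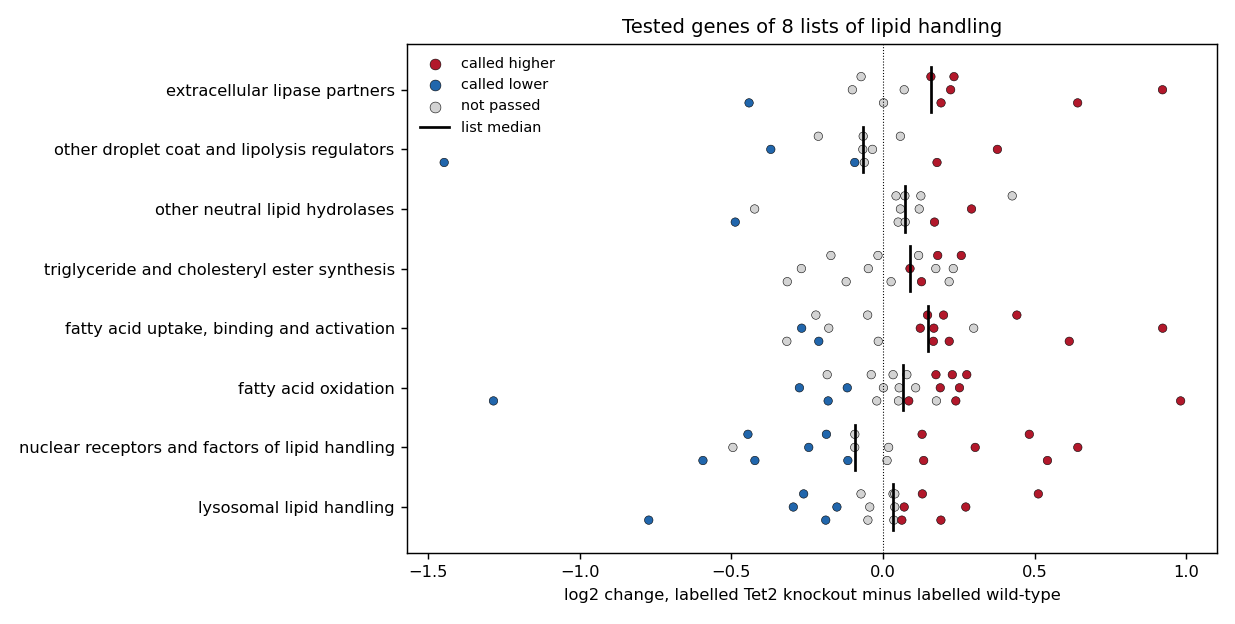
Log2 change (horizontal axis; libraries labelled Tet2 knockout minus those labelled wild-type) of each tested gene in 8 lists of lipid handling, coloured by call, with list medians as black bars. Hilpda at -1.45 lies farthest left, and the medians range from -0.093 to 0.16.

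These 8 lists depended on the spread between libraries. With the assumed coefficient of variation of 0.1, the counts called higher ran from 0 to 3 a list and those called lower from 0 to 4, and Hilpda, Angptl4, Lrp1, Acsl1, Fabp4, Fabp3, Nr1h3, Pparg and Pdk4 were among those still called, while Sel1l, Apoe, Cd36, Fabp5 and Mitf were not.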

How the data were processed

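The authors deposited a table of raw counts per gene with gene names, positions and lengths, from RNA of 6 libraries. The submitters' processing notes name fastp, STAR, featureCounts and the build mm10, while versions, the strand setting and the counting rule for shared reads are not given in the sources used here. Samples were grouped by their labels, 3 libraries a group. Genes were filtered with edgeR 4.0.16 (R 4.3.3; filterByExpr, minimum count 10), scaled by TMM and tested with the quasi-likelihood test, knockout label against wild-type label, with Benjamini-Hochberg adjustment over 13175 genes and a threshold of 0.05. The script was tested on simulated data. CPM use TMM library sizes, and CPM per kilobase use the deposited length. With 3 libraries a group, the smallest p that permuting single values allows is 0.1, so no such test was used. Read counts are not independent molecules, so intervals cover the spread between these libraries. Alternatives were other scalings and filters, DESeq2 1.42.0, limma 3.58.1 (voom), a replicate block, an assumed variation of 0.1 between libraries, and leaving out each library. The genes and lists were chosen with earlier results of these data known. Named genes are the 10 members, Tet2, a set of known partners and, in each list, up to 4 called genes with the smallest p, apart from those said to be named after their values were seen. Promoters came from RefSeq (GRCm38.p6) and transcript lengths from GENCODE M21. Some genes that this rule names are not reported here.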

Additional observations from a re-analysis of the deposited data

How the results depend on the processing

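Scaling by RLE or upper quartile, DESeq2, voom and the other filters left 4 of the 10 genes called higher and 4 lower, and leaving out 1 library gave 4 to 4 higher and 4 to 4 lower. The assumed coefficient of variation of 0.1 left 2 called lower, because Pnpla2 and Abhd5 lost their calls, and gave 1885 calls over all tested genes, against 5385 with the estimated variation. Leaving out 1 library gave 4725 to 5177 calls over all genes, and DESeq2 gave 4153. Same-numbered libraries did not deviate together (correlations 0.0036, -0.0065 and -0.0206). Much of the deviation within a label can be counting noise, so these correlations cannot settle whether the numbers pair libraries. With a replicate block 5259 genes were called, again with 4 of the 10 higher and 4 lower. The largest median shift from scaling was -0.0199 on the log2 scale. Of the log2 changes of the 9 tested genes under the alternatives, 133 kept direction and call and 2 lost the call, and none reversed. CPM per kilobase moved beyond the spread between replicates in 23 of 80 values, and the order of Lpl and Plin2 in libraries labelled knockout turned with the length used. G0s2, with 1 to 12 reads a library, could be fitted only without the filter or with a library left out. Without the filter the SE of 0.51 exceeded the log2 change of 0.31, so neither the direction nor the size of a change was resolved.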
